A study of Mus musculus with 93 samples.

Results

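The transcripts described here are those of the mouse mitochondrial genome, taken as every row of the deposited gene table whose symbol begins with mt-. The rule found 11 of 30235 rows: the 2 ribosomal RNA genes mt-Rnr1 and mt-Rnr2, and 9 of the 13 protein genes of the mitochondrial genome. They were followed in polyadenylated RNA of the neural retina and of the posterior eyecup, the eye without lens and retina, all from females. Donor animals were either wild type or Efemp1ki/ki, that is, homozygous for an Efemp1 knock-in that models the macular disease Doyne honeycomb retinal dystrophy, and no group received a treatment. Wild-type and Efemp1ki/ki tissue was taken at 3, 9 and 17 months, which gives 12 groups and 93 libraries: 8 in each group, except 6 wild-type eyecups at 3 months and 7 Efemp1ki/ki eyecups at 17 months. The knock-in is present in every cell, so the groups do not separate retinal pigment epithelium, where deposits form in the human disease, from the other tissue of the eyecup. The labels do not say whether libraries of a group came from separate animals, so the p-values reflect only how far the libraries scatter, which may be technical.

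Mitochondrial DNA encodes core subunits of the respiratory chain and of ATP synthase, while most subunits and all proteins that copy, transcribe and translate it come from nuclear genes. It is transcribed from both strands as long precursors, from which tRNAs are cut out to free the ribosomal and messenger RNAs. The messengers receive short poly(A) tails, which lets oligo(dT) selection capture them. Photoreceptors, pigment epithelium and extraocular muscle are all rich in mitochondria.

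By role, the ribosomal genes come first on the mitochondrial chromosome of the GRCm38 build. mt-Rnr1, the 12S RNA of the small subunit of the mitochondrial ribosome, spans chrM:70-1024, and mt-Rnr2, the 16S RNA of the large subunit, chrM:1094-2675. Subunits of complex I, which oxidises NADH, are encoded by mt-Nd1 (chrM:2751-3707), mt-Nd2 (chrM:3914-4951), mt-Nd4 (chrM:10167-11544) and mt-Nd5 (chrM:11742-13565). Cytochrome b of complex III is encoded by mt-Cytb (chrM:14145-15288). The 3 catalytic core subunits of cytochrome c oxidase, complex IV, come from mt-Co1 (chrM:5328-6872), mt-Co2 (chrM:7013-7696) and mt-Co3 (chrM:8607-9390), and mt-Atp6 (chrM:7927-8607) encodes subunit a of ATP synthase, complex V. All 11 are single-exon genes on the plus strand, 681 to 1824 bases long, and their coordinates in the table equalled those of GENCODE M21. The other protein genes, mt-Nd3, mt-Nd4l, mt-Nd6 and mt-Atp8, of which the longest has 519 bases, had no mt- row in the gene table. Nor had the 22 tRNA genes, so the shares below leave all of these out.

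The ends of these messengers show why the tail matters to their reading frame. The sequences below are the last 30 bases of 4 transcripts, 5′ to 3′ as in the GENCODE M21 transcripts, with the bases of the stop codon in capitals.
mt-Atp6: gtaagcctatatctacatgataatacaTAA
mt-Co3: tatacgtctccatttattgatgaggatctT
mt-Nd4: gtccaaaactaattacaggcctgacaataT
mt-Cytb: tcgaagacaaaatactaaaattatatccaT
mt-Co3, mt-Nd4 and mt-Cytb are encoded with a single T of their stop codon, and the A bases that complete it are added with the poly(A) tail. The last A of the mt-Atp6 stop codon, position 8607, is also the first base of mt-Co3, so these neighbours share 1 base of the genome.

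A nuclear copy of part of the mitochondrial genome lies on chromosome 1, minus strand, and the table holds 4 of its predicted genes as separate rows. Gm28661 (chr1:24614885-24615565) matched 681 bases of mt-Co2, Gm10925 (chr1:24613974-24614651) 678 bases of mt-Atp6, Gm28437 (chr1:24613189-24613971) 783 bases of mt-Co3 and Gm28439 (chr1:24611535-24612410) 876 bases of mt-Nd4, each with 0 mismatches. The first 60 bases of 3 of these pairs are shown because no read that falls wholly inside them can tell the members of a pair apart.
mt-Co2: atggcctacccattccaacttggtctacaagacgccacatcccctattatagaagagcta
Gm28661: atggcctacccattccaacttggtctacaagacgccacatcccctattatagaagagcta
mt-Atp6: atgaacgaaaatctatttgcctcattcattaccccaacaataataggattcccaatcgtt
Gm10925: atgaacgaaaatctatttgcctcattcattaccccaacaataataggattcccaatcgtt
mt-Co3: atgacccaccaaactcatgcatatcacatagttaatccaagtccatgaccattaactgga
Gm28437: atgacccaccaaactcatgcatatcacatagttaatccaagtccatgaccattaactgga
Values of mt-Co2, mt-Atp6 and mt-Co3 are therefore uncertain, and sums with the copy are given for the main comparisons. The copy of mt-Nd4 covers 63.6% of that gene, and the share of their joint counts given to Gm28439 was at most 0.164% in any library, so mt-Nd4 was hardly touched. Over all 4 pairs the copies took a median of 0.385% of the library total in eyecups and 0.287% in retinas.

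The 45 eyecups held 14236100 to 35297600 estimated counts each and the 48 retinas 9218130 to 37475500. All 11 genes passed the filter on low counts in every fit. With copies added, each held at least 86.7 counts per 1000000 per kilobase in every library, so none was kept through a single group. In the labelled retina, 16 of 16 rod photoreceptor genes were present and summed to 62448 to 84947 counts per 1000000 (CPM), while the same genes summed to 603 to 28305 CPM in eyecups. Of 13 retinal pigment epithelium genes, 12 were in the table and summed to 785 to 2993 CPM in eyecups against 469 to 745 CPM in retinas. Skeletal muscle genes, 15 of 16 present, summed to 3108 to 54727 CPM in eyecups and to at most 23.8 CPM in retinas. The muscle list includes nuclear genes of mitochondrial proteins, so the sum, and the score made from the list, do not measure muscle alone. Libraries were also ranked by a GC trend, the log2 deviation of genes from the tissue's average per 10 percentage points of GC content. Beyond 3 scaled median absolute deviations lay Efemp1ki/ki eyecups 3 and 4 at 3 months, Efemp1ki/ki retina 5 at 3 months, wild-type retina 7 at 9 months and wild-type retinas 1 and 2 at 17 months. This measure bears on the mitochondrial genes because their GC content, 35.4% to 39.9%, is low beside the median of 48% over all rows.

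Mitochondrial transcripts took a median of 7.18% of the library total in eyecups (1.04% to 13.8%, 45 libraries) and 3.99% in retinas (1.77% to 5.57%, 48 libraries). Adding the chromosome 1 copies gave medians of 7.65% and 4.28%. In wild-type eyecups the share was 5.25% to 9.28% at 3 months (median 6.84%), 5.04% to 11.9% at 9 months (median 8.20%) and 5.16% to 13.8% at 17 months (median 9.28%). Efemp1ki/ki eyecups had 1.04% to 8.50% at 3 months (median 3.47%), 4.62% to 12.3% at 9 months (median 7.91%) and 3.79% to 9.30% at 17 months (median 7.10%). The wild-type and Efemp1ki/ki ranges overlapped at every age, and the Efemp1ki/ki eyecups at 3 months held the 6 lowest shares among eyecups of that age. Retinal shares were tighter. Wild-type retinas had medians of 3.97% (3.69% to 4.54%), 4.29% (3.59% to 5.57%) and 3.65% (1.77% to 4.30%) at 3, 9 and 17 months. Efemp1ki/ki retinas had 4.03% (3.69% to 5.38%), 4.24% (3.68% to 4.99%) and 3.57% (2.18% to 4.23%), and the ranges of the genotypes overlapped at each age.

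**Figure D1:**
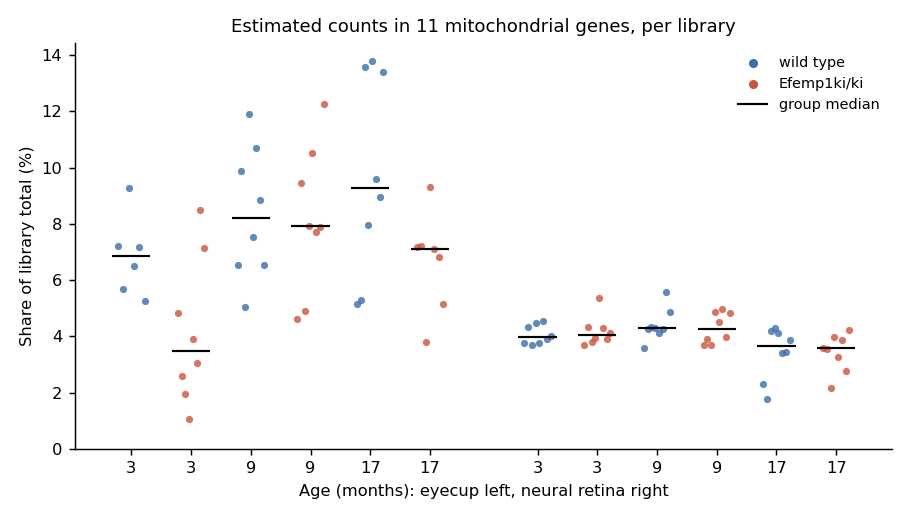
Share of each library's estimated counts that fell in the 11 mitochondrial genes (y axis, percent), by age in months (x axis, eyecups left, neural retinas right) for wild-type (blue) and Efemp1ki/ki (red) libraries, 1 point per library with a black line at the group median. Eyecup medians lie between 3.47% and 9.28% and retina medians between 3.57% and 4.29%, and the Efemp1ki/ki eyecups at 3 months reach down to 1.04%.

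Per length, mt-Co1 was the most abundant transcript in both tissues. Levels here are CPM per kilobase of transcript (RPKM) with the copies added to their mitochondrial genes. mt-Co1 had a median of 15983 RPKM in eyecups (2384 to 29065) and 7735 RPKM in retinas (4268 to 9639), and exceeded the next gene in 45 of 45 eyecups and 48 of 48 retinas. After it came mt-Co3, mt-Co2, mt-Atp6 and mt-Cytb in eyecups, with medians of 11054, 10811, 9570 and 8198 RPKM. Neighbours in this order were not all separated, since mt-Co3 exceeded mt-Co2 in 32 of 45 eyecups and mt-Co2 exceeded mt-Co3 in 34 of 48 retinas. mt-Atp6 exceeded mt-Cytb in only 26 of 48 retinas. The complex I messengers were lower, with eyecup medians of 5205 RPKM for mt-Nd1, 4873 for mt-Nd4, 3263 for mt-Nd2 and 2529 for mt-Nd5. The retina had the same complex I order except that mt-Nd5 (1546 RPKM) stood above mt-Nd2 (1464 RPKM), in 28 of 48 libraries. mt-Rnr2 (612 RPKM in eyecups, 523 in retinas) and mt-Rnr1 (524 and 318 RPKM) were lowest, in libraries made by poly(A) selection.

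**Figure D2:**
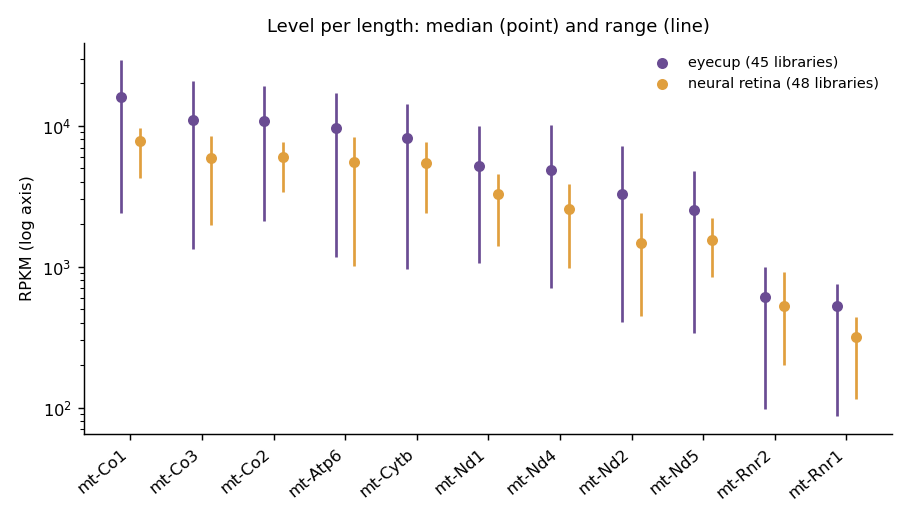
Level per length of the 11 mitochondrial genes (x axis, in the order of the eyecup medians) on a log axis in RPKM, with the median as a point and the lowest to highest library as a line, for 45 eyecups (purple) and 48 retinas (orange). mt-Co1 is highest in both tissues, and the ribosomal genes mt-Rnr2 and mt-Rnr1 are lowest.

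The members moved closely together across libraries. Each gene's CPM was set against the sum of the other 10, with copies added, and Spearman's rho over 45 eyecups was 0.94 to 0.99 for the 9 messengers, 0.78 for mt-Rnr1 and 0.65 for mt-Rnr2. In 48 retinas rho was 0.87 to 0.96 for the messengers, 0.78 for mt-Rnr1 and 0.84 for mt-Rnr2. These are descriptions, since points within a tissue share a library total and base composition. Spread differed by gene: the coefficient of variation in eyecups was 29.6% for mt-Rnr1 and 31.1% for mt-Rnr2, and 40.4% (mt-Cytb) to 52.6% (mt-Nd2) for the messengers. In retinas it was lowest for mt-Co1 (13.8%) and highest for mt-Nd2 (27.7%). mt-Co1 gave a median of 30.7% of all mitochondrial counts in eyecups and 27.9% in retinas, while mt-Cytb gave 11.7% and 14.6%.

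All 11 genes were higher in the eyecup than in the retina. Over the 6 genotype and age groups of each tissue, the log2 fold change was largest for mt-Nd2 (1.44 ± 0.12 SE, edgeR adjusted p = 1.44e-20) and smallest for mt-Rnr2 (0.57 ± 0.08, edgeR adjusted p = 2.86e-10). The median over the genes was 1.16, against 0.01 over the 19210 genes tested. Most genes differ between these tissues, with 94.7% of all genes called and 47.7% called higher, so the count of 11 is read against that share. Genes with the same scale of change were mt-Co1 (1.32 ± 0.10), mt-Atp6 (1.32 ± 0.12), mt-Nd4 (1.31 ± 0.11) and mt-Co3 (1.24 ± 0.13), followed by mt-Co2 (1.16 ± 0.09), mt-Rnr1 (1.03 ± 0.08), mt-Nd1 (1.03 ± 0.10), mt-Nd5 (1.01 ± 0.10) and mt-Cytb (0.88 ± 0.10). Gm10925, the copy of mt-Atp6, had a log2 fold change of -0.70 ± 0.19 (edgeR adjusted p = 0.000431) although its sequence is that of mt-Atp6, which rose; their sum gave 1.08 ± 0.11. With their copies added, mt-Co2 was at 1.16 ± 0.09 and mt-Co3 at 1.25 ± 0.11. In bulk tissue, fewer cells of a type and less RNA per cell cannot be told apart. On the authors' TPM scale, where the median of all genes moved to -0.52 and calls split into 6093 higher and 12434 lower in place of 9165 and 9025, the median of the mitochondrial genes was 0.37 and mt-Rnr2 was at -0.21. With the per-library GC offset the calls split into 7881 and 10400 and the mitochondrial median was 1.22.

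Nuclear genes for the respiratory chain and ATP synthase were mostly higher in the eyecup too. Their list includes complex II, to which no mt- row belongs, and cytochrome c. Of 75 nuclear-encoded subunits listed, 52 were tested (median log2 fold change 1.11). Beside 9165 genes called higher and 9025 called lower of all 19210, these 52 had 48 higher and 3 lower. Among them were Ndufa8 of complex I (1.53 ± 0.07), Sdhb, the iron-sulphur subunit of complex II (2.15 ± 0.09), and Atp5d of ATP synthase (1.30 ± 0.06). Markers of mitochondrial mass, such as outer-membrane and carrier proteins, had 13 of 14 higher and 1 lower (median 0.84), the exception being Tomm20, an import receptor, at -0.83 ± 0.03. The 38 tested genes of mitochondrial DNA replication, transcription and RNA processing were split, 12 higher and 17 lower, with a median of -0.01.

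In eyecups at 3 months, mt-Rnr2 was lower in Efemp1ki/ki than in wild type. It measured 917, 1118 and 1275 CPM (lowest, median, highest) in 6 wild-type eyecups and 145, 685 and 914 CPM in 8 Efemp1ki/ki eyecups, so the groups did not overlap. CPM, unlike RPKM, are scaled by trimmed mean of M values (TMM) throughout, separately in each tissue. The log2 fold change was -0.86 ± 0.22 (SE, edgeR adjusted p = 0.0259). mt-Rnr2 was the only one of 11 called, beside 3.07% of all genes called and 2.61% called lower. All 11 fold changes were negative, from -1.32 (mt-Co3) to -0.46 (mt-Co1), with a median of -0.75 against 0.03 over all genes. Of the 11, 8 had an unadjusted edgeR p under 0.05, beside 3075 of 18003 genes. DESeq2 called 4, namely mt-Rnr2, mt-Nd2, mt-Atp6 and mt-Co3, beside 982 of 15558 genes given an adjusted p, and limma on log2(TPM + 1) called 0.

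The genes that missed the threshold had wide ranges in the Efemp1ki/ki group. mt-Co3 measured 5387, 6864 and 10683 CPM in wild-type eyecups and 508, 1966 and 7179 CPM in Efemp1ki/ki eyecups at 3 months, with 6 of 8 below every wild-type library (log2 fold change -1.32 ± 0.41, edgeR adjusted p = 0.0617). With its copy added it was at -0.76 ± 0.35 (edgeR adjusted p = 0.242). mt-Nd2 measured 2518, 3208 and 4802 CPM against 393, 1316 and 3437 CPM (-1.07 ± 0.36, edgeR adjusted p = 0.0879). mt-Co1 measured 16267, 19273 and 27451 CPM against 3451, 11724 and 32751 CPM (-0.46 ± 0.35, edgeR adjusted p = 0.551). Libraries 8 and 9 of the Efemp1ki/ki group lay within the wild-type share, at 8.50% and 7.14%, and libraries 4 and 3 were lowest, at 1.04% and 1.96%.

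Those lowest libraries also had the steepest GC trends among eyecups, 0.83 and 0.43, while wild-type eyecups at 3 months ran from -0.10 to -0.04. All 8 Efemp1ki/ki eyecups at 3 months had a positive trend, from 0.05 upward, so the groups did not overlap on this measure either, and its part in the result was not tested. With a GC offset per library the median of the 11 genes was -0.35, mt-Rnr2 was at -0.39 ± 0.16 (edgeR adjusted p = 0.508) and 0 were called; the number of all genes called went from 553 to 38. Without the 2 libraries of extreme trend mt-Rnr2 was at -0.59 ± 0.16 (edgeR adjusted p = 0.130). Over the 13 alternatives the adjusted p of mt-Rnr2 ran from 0.00787 to 1.00, and 8 of them kept its call. Leaving out single eyecups kept it in 39 of 45 fits, and it was lost without Efemp1ki/ki library 2 or 3 or wild-type library 2, 3, 6 or 7 at 3 months (edgeR adjusted p up to 0.0721). Summed skeletal muscle genes were alike in these groups, 5831 to 18761 CPM in wild type (median 10788) and 6545 to 27682 CPM in Efemp1ki/ki (median 10721). With the muscle score as a covariate 8 of 11 mitochondrial genes and 938 of 18003 genes in all were called, mt-Co3 at -1.48 ± 0.32 (edgeR adjusted p = 0.00721) and mt-Nd2 at -1.21 ± 0.25 (edgeR adjusted p = 0.00438).

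At 9 months no mitochondrial gene passed the test for genotype in the eyecup, with log2 fold changes from -0.27 (mt-Co3, -0.08 with its copy added) to 0.04 (mt-Nd5). edgeR called 0 of 11, with 0 at an unadjusted p under 0.05 beside 249 of 18003 genes. DESeq2 and limma called 0, and edgeR called 0.00555% of all genes. At 17 months the fold changes were again all negative, from -1.14 ± 0.40 (mt-Co3) to -0.31 ± 0.33 (mt-Co1), median -0.63. edgeR called 0 of 11 beside 0.0611% of all genes, although 7 had an unadjusted p under 0.05, beside 1803 of 18003 genes. DESeq2 and limma called 0. mt-Co3 measured 4368, 9464 and 17290 CPM in wild-type and 2538, 3741 and 9141 CPM in Efemp1ki/ki eyecups at 17 months, with 7 of 7 of the latter below the wild-type median. The sum with Gm28437 measured 4956, 11598 and 18622 CPM against 3692, 8330 and 11824 CPM, with 6 of 7 below that median, and was at -0.61 ± 0.34 (edgeR adjusted p = 0.564). With copies added and the GC offset, the median of the 11 genes at 17 months was -0.25. The change in the genotype difference from 3 to 17 months was not called for any of the 11 by edgeR, DESeq2 or limma. edgeR called it for 0% of all genes, and at an unadjusted p under 0.05 lay 0 of 11 beside 560 of 18003.

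Averaged over the 3 ages, 4 of 11 mitochondrial genes were lower in Efemp1ki/ki eyecups, beside 4.48% of all genes called and 3.37% called lower. They were mt-Co3 (-0.91 ± 0.23, edgeR adjusted p = 0.0149), mt-Rnr2 (-0.51 ± 0.13, edgeR adjusted p = 0.0120), mt-Atp6 (-0.69 ± 0.20, edgeR adjusted p = 0.0410) and mt-Nd2 (-0.67 ± 0.20, edgeR adjusted p = 0.0457). The median over the genes was -0.48, against 0.02 over all genes. Members that did not pass included mt-Nd4 (-0.56 ± 0.19), mt-Co2 (-0.48 ± 0.17), mt-Nd1 (-0.47 ± 0.17) and mt-Rnr1 (-0.39 ± 0.14), while mt-Nd5, mt-Cytb and mt-Co1 lay between -0.30 and -0.25. With the GC offset the median was -0.23, mt-Co3 was at -0.74 ± 0.21 (edgeR adjusted p = 0.0611) and 0 were called; without the 2 libraries of extreme trend mt-Co3 and mt-Rnr2 kept their calls at -0.80 and -0.42. mt-Co3 and mt-Rnr2 stayed called whichever single eyecup was left out, with edgeR adjusted p up to 0.0290 and 0.0209, while mt-Atp6 was called in 27 and mt-Nd2 in 22 of those 45 fits.

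mt-Co3 and its identical copy differed in opposite directions. Gm28437 was higher in Efemp1ki/ki eyecups over the 3 ages (0.75 ± 0.21, edgeR adjusted p = 0.0362) while mt-Co3 was lower. At 3 months Gm28437 measured 608, 887 and 1638 CPM in wild-type and 475, 1871 and 3903 CPM in Efemp1ki/ki eyecups. Of the joint counts, the share given to Gm28437 had a median of 11.1% in wild-type and 44.8% in Efemp1ki/ki eyecups at 3 months, and these ranges (6.82% to 19.1% and 25.8% to 63.7%) did not overlap. At 17 months the medians were 12.4% and 40.4%, and at 9 months 27.5% and 36.4%. The sum of both rows measured 6638, 8029 and 11464 CPM in wild-type and 983, 3892 and 11082 CPM in Efemp1ki/ki eyecups at 3 months. Tested as a sum, mt-Co3 over the 3 ages was at -0.48 ± 0.20 (edgeR adjusted p = 0.156), so its call ended, while mt-Rnr2, mt-Nd2 and mt-Atp6 with its copy (-0.64 ± 0.19, edgeR adjusted p = 0.0467) were still called. The share given to the copies of the other genes also varied: for mt-Co2 the group medians ran from 10.4% to 24.8%, and for mt-Atp6 from 3.37% to 8.74% in eyecups and 16.6% to 29.0% in retinas.

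Gm28439, the copy of the first part of mt-Nd4, was low, and its genotype groups did not overlap in eyecups at 3 months. It measured 4.12, 4.86 and 6.75 CPM in wild-type and 0.0581, 0.594 and 2.14 CPM in Efemp1ki/ki eyecups at that age (log2 fold change -2.71 ± 0.57, edgeR adjusted p = 0.00740). Over the 3 ages it was at -1.54 ± 0.30 (edgeR adjusted p = 0.00261), and it was called under each of the 10 alternatives that gave it a value. At 9 and 17 months the groups overlapped and it was not called (-0.31 ± 0.49 and -1.59 ± 0.53), nor was it called at any age in retinas. mt-Nd4, of identical sequence there, was at -0.88 ± 0.34 at 3 months (edgeR adjusted p = 0.149). These counts may come from either locus.

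**Figure D3:**
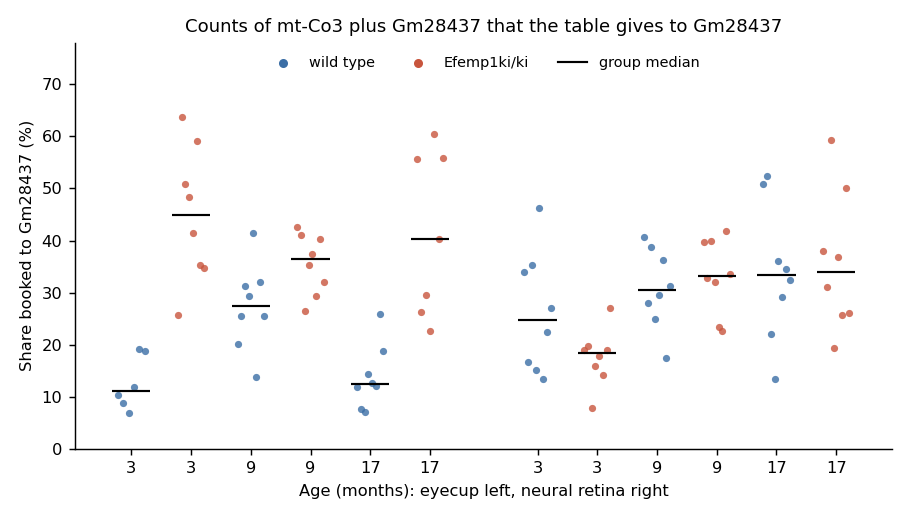
Share of the joint counts of mt-Co3 and Gm28437 that the table gives to Gm28437 (y axis, percent), by age in months (x axis, eyecups left, neural retinas right), 1 point per library and a black line at the group median. Wild-type eyecups (blue) have medians of 11.1%, 27.5% and 12.4% at 3, 9 and 17 months, and Efemp1ki/ki eyecups (red) 44.8%, 36.4% and 40.4%.

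**Figure D4:**
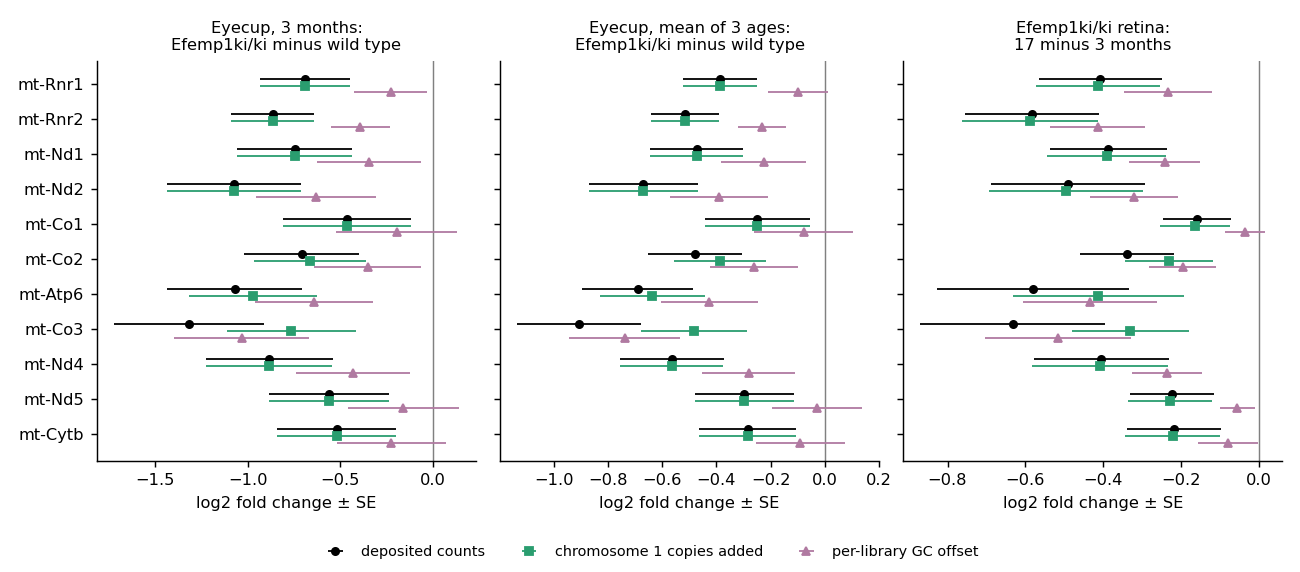
Log2 fold change with its standard error (x axis) of the 11 mitochondrial genes (y axis, in genome order) in 3 comparisons, from the deposited counts (black circles), after adding the chromosome 1 copies (green squares) and with a per-library GC offset (purple triangles). The GC offset brings the median at 3 months from -0.75 to -0.35, and adding Gm28437 brings mt-Co3 over the 3 ages from -0.91 to -0.48.

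For nuclear genes of the same pathway, the median in 3-month eyecups was near that of all genes. Of 52 nuclear subunits tested, 0 were called by edgeR and their median log2 fold change was 0.12. The smallest p belonged to Cycs, cytochrome c, at -0.49 ± 0.29. The 14 markers of mitochondrial mass had a median of 0.01 with 0 called, and the 14 regulators of mitochondrial biogenesis 0.06 with 0 called. Calls among 38 genes of mitochondrial DNA replication, transcription and RNA processing were about as frequent as among all genes, with 1 lower beside 2.61%. This was Mtpap, the mitochondrial poly(A) polymerase, at -0.38 ± 0.09 (edgeR adjusted p = 0.0199). Over the 3 ages Mtpap was at -0.20 ± 0.05 (edgeR adjusted p = 0.0216) and Mterf1a, a transcription termination factor, at -0.31 ± 0.08 (edgeR adjusted p = 0.0252), the 2 called of 38, beside 3.37% of all genes called lower. Of the regulators Pprc1, a PGC-1-related coactivator, was higher (0.17 ± 0.05, edgeR adjusted p = 0.0303) and Yy1, a transcription factor, lower (-0.17 ± 0.05, edgeR adjusted p = 0.0464).

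With age, eyecup messengers of both genotypes had positive log2 fold changes that did not pass the test. From 3 to 17 months the log2 fold changes in wild type were 0.47 to 0.67 for the 9 messengers and 0.02 and -0.04 for mt-Rnr1 and mt-Rnr2. In Efemp1ki/ki eyecups they were 0.56 to 0.83 for the messengers and 0.29 and 0.25 for the ribosomal RNAs. edgeR called 0 of 11 in wild type (5.88% of all genes called) and 0 of 11 in Efemp1ki/ki (3.57% of all genes called). At an unadjusted edgeR p under 0.05 lay 0 and 6 of 11, beside 4423 and 3433 of 18003 genes. DESeq2 called 0 in both, and limma on log2(TPM + 1) called 0 and 3. Skeletal muscle genes moved the same way, with median log2 fold changes of 0.95 and 0.75 over 15 genes and 0 called, and summed medians at 17 months of 16780 CPM in wild type and 16209 CPM in Efemp1ki/ki. With the muscle score as a covariate the median of the 11 mitochondrial genes went from 0.54 to 0.13 in wild type and from 0.68 to 0.49 in Efemp1ki/ki. Nuclear subunits had medians of 0.36 and 0.39. Ppargc1a, the coactivator PGC-1 alpha, rose in both genotypes (1.04 ± 0.26, edgeR adjusted p = 0.0153, and 0.98 ± 0.24, edgeR adjusted p = 0.0143), as did Lrpprc, which stabilises mitochondrial messengers (0.53 ± 0.15, edgeR adjusted p = 0.0286, and 0.51 ± 0.14, edgeR adjusted p = 0.0305). Both were named for being among the 3 smallest p of their lists, so they do not stand for those lists.

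In the retina no mitochondrial gene passed the test for genotype. Log2 fold changes lay between -0.05 and 0.17 at 3 months, -0.14 and 0.09 at 9 months, -0.19 and 0.04 at 17 months, and -0.04 and 0.03 over the 3 ages. edgeR called 0 of 11 at each age and over the mean, with 0 at an unadjusted p under 0.05, and DESeq2 and limma called 0. The shares of all genes called were 1.83% at 3 months, 0% at 9 months, 0.406% at 17 months and 5.24% over the mean. In the same order, 3394, 1047, 2624 and 3742 of 17240 genes had an unadjusted edgeR p under 0.05. The SE over the mean of ages ran from 0.05 for mt-Co1 to 0.14 for mt-Atp6 and mt-Co3. Nuclear subunits had 3 of 52 lower over the mean, with a median of -0.06.

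In the retina, calls of mitochondrial genes between 3 and 17 months were few and near the background. In Efemp1ki/ki retinas 2 of 11 fell from 3 to 17 months, beside 18.8% of all genes called and 9.01% called lower. An unadjusted edgeR p under 0.05 was found for 9 of 11, beside 5594 of 17240 genes. mt-Rnr2 measured 702, 938 and 1031 CPM at 3 months and 396, 623 and 761 CPM at 17 months, which overlap (log2 fold change -0.58 ± 0.17, edgeR adjusted p = 0.0160). mt-Co2 measured 3209, 3470 and 5076 CPM at 3 months and 1816, 2972 and 3509 CPM at 17 months (-0.34 ± 0.12, edgeR adjusted p = 0.0442). All 11 were negative, with a median of -0.40, and DESeq2 called 7, beside 3449 of 17240 genes. With the GC offset the median was -0.24. On log2(TPM + 1) it was -0.05, with values up to 0.04, against 0.05 over all genes. In wild-type retinas 1 of 11 fell, beside 17.8% of all genes called and 7.92% called lower: mt-Co1, from 11498, 12522 and 12967 CPM to 6629, 11025 and 12744 CPM (-0.24 ± 0.09, edgeR adjusted p = 0.0489). The wild-type median was -0.28. An unadjusted edgeR p under 0.05 was found for 3 of 11, beside 5449 of 17240 genes. DESeq2 called 1, beside 3329 of 17240 genes. With the GC offset the wild-type median was -0.23, and on log2(TPM + 1) it was -0.03, against 0.05 over all genes. The genotypes were not shown to differ in the change with age, since edgeR, DESeq2 and limma called the interaction for 0 of 11. edgeR called it for 0% of all genes. At an unadjusted edgeR p under 0.05 lay 0 of 11, beside 690 of 17240 genes.

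In 32 fits that each left out 1 retina of 3 or 17 months, mt-Co1 in wild type was called in 13 and mt-Co2 in Efemp1ki/ki in 23, with edgeR adjusted p up to 0.125 and 0.149. Of 13 alternatives, 4 kept the call of mt-Co2. Wild-type retinas 1 and 2 at 17 months had mitochondrial shares of 2.32% and 1.77% and the highest GC trends among retinas, 0.27 and 0.37, and without the libraries of extreme trend mt-Co1 was at -0.10 ± 0.06 and lost its call. mt-Rnr2 in Efemp1ki/ki stayed called there at -0.56 and in all 32 of those fits, with edgeR adjusted p from 0.00736 to 0.0434. mt-Co2 was not called once Gm28661 was added (-0.23 ± 0.12), and Gm28437 rose in the same comparison (0.59 ± 0.21, edgeR adjusted p = 0.0435) while mt-Co3 was at -0.63 ± 0.24 (edgeR adjusted p = 0.0549). Of nuclear genes, 13 of 52 subunits were lower in wild type and 11 in Efemp1ki/ki, with medians of -0.11 and -0.09. Of 14 mass markers, 7 and 8 were lower. In the same order, 7.92% and 9.01% of all genes were called lower. Slc25a5, an ADP/ATP carrier, was at -0.20 ± 0.04 and -0.22 ± 0.04, and Tfam, which packages mitochondrial DNA, fell in Efemp1ki/ki (-0.16 ± 0.05, edgeR adjusted p = 0.0207).

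The genotype difference itself differed between tissues for 1 of 11 genes, mt-Co3, beside 3.23% of all genes called and 2.41% called in that direction. The difference in log2 fold change, eyecup minus retina, was -0.95 ± 0.26 (edgeR adjusted p = 0.0294), and it was -0.51 ± 0.21 with Gm28437 added (edgeR adjusted p = 0.157), so the call ended. Gm28437 itself was at 0.82 ± 0.25 (edgeR adjusted p = 0.0457). All 11 were negative, 8 at an unadjusted edgeR p under 0.05, beside 3555 of 19210 genes. mt-Rnr2 was at -0.51 ± 0.16 (edgeR adjusted p = 0.0541) and mt-Atp6 at -0.71 ± 0.25 (edgeR adjusted p = 0.0825).

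Across libraries, the mitochondrial share went with different measures in the 2 tissues. In eyecups it went with the mean log2 CPM of skeletal muscle genes (Spearman's rho 0.75, 45 libraries), closely in wild type (0.92, 22 libraries) and less so in Efemp1ki/ki (0.63, 23 libraries), and with nuclear subunits in the same way (0.75, and 0.95 in wild type). Its rho with the GC trend was -0.36, made up of 0.16 in wild type and -0.57 in Efemp1ki/ki. In retinas, where muscle genes were low, the share went with the GC trend (rho -0.71, 48 libraries; -0.63 without the 4 of extreme trend) while rho with nuclear subunits was 0.22, made up of -0.05 in wild type and 0.58 in Efemp1ki/ki (24 libraries each). The muscle list itself includes nuclear genes of mitochondrial proteins, so its rho with the mitochondrial share is not one with muscle alone. The points share library totals and base composition, and these values are descriptions. The eyecup genes most like the mean log2 CPM of the mitochondrial messengers were Cycs (rho 0.95), Cyyr1 (0.93), Rmdn1 (0.92), Wwp1 (0.92) and Cfl2 (0.92). In the retina they were Ube2d3, Ube2v2, Rnf11, Rnf13 and Pter (0.92 to 0.93). All 10 have a GC content between 35.1% and 42.9%, below the median of all rows.

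**Figure D5:**
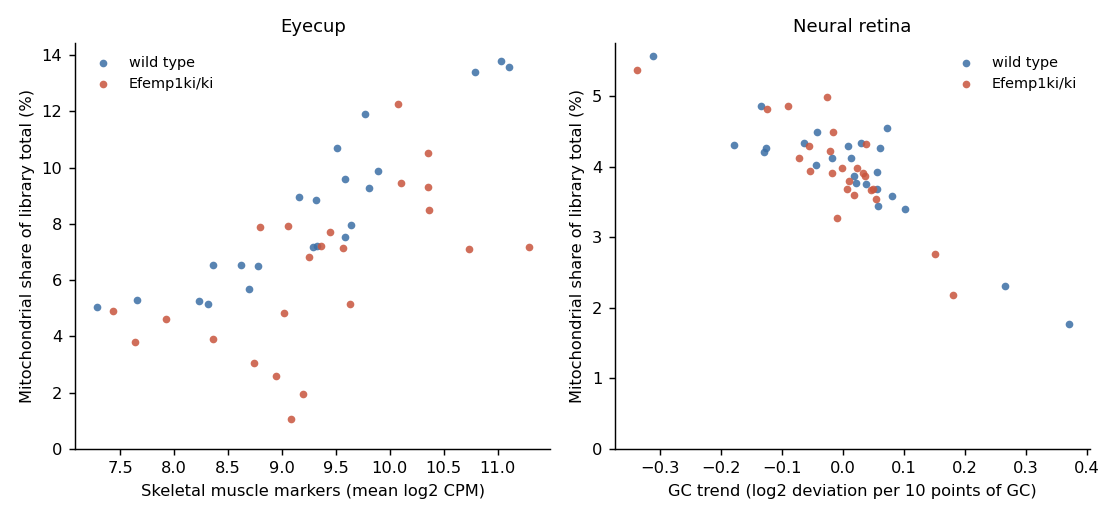
Mitochondrial share of the library total (y axis, percent) for each eyecup against the mean log2 CPM of skeletal muscle genes (left, x axis) and for each retina against the GC trend in log2 deviation per 10 percentage points of GC (right, x axis), wild type in blue and Efemp1ki/ki in red. The eyecup points rise with the muscle score (rho 0.75) and the retina points fall with the GC trend (rho -0.71).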

How the data were processed

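The authors deposited estimated counts per gene, used here after rounding. In the authors' deposited TPM table, protein-coding genes alone sum to 1000000, so its values count as a score and enter only the alternatives named for it. The submitters' processing notes name GRCm38.p4; the aligner is not given in the sources used here, nor is the counter. Per the labels' protocols, libraries were TruSeq Stranded mRNA. Each table also has a column for no listed sample (1 column), which was not used.

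The members and lists were chosen with earlier results of these data known. Genes kept by filterByExpr (18003 eyecup, 17240 retina, 19210 joint) were fitted with edgeR 4.0.16 (TMM, robust quasi-likelihood F test, R 4.3.3), 1 fit per tissue and a joint fit, with a gene called where its p, adjusted by Benjamini-Hochberg over all genes, was under 0.05; SE came from the F statistic. Alternatives used RLE factors, no filter beyond 1 read, scaling on nuclear genes, a GC offset (spline, 5 degrees of freedom), marker covariates, the replicate block, left-out libraries, DESeq2 1.42.0 and limma 3.58.1 on log2(TPM + 1). Any mt- row or chromosome 1 copy could be named; from each other list, the 3 smallest p. The fits were tested on simulated counts. No 2 libraries of a group were copies (closest pair 2.19 times sampling noise, chi-square per degree of freedom).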

Additional observations from a re-analysis of the deposited data

Results flagged for a closer look

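Single libraries stood above the rest of their group in 8 of the 144 group and measure combinations looked at. That share is close to the 1 in 20 that chance alone would give. The measures move together, so those of 1 library are not independent, and all are without the chromosome 1 copies. Efemp1ki/ki retina 5 at 3 months accounts for 5 of the 8. Its mitochondrial share was 5.38% against 4.32% in the next library, and it was highest in mt-Co1 (15380 CPM, next 12235), mt-Co2 (5076 CPM, next 3793), mt-Cytb (9168 CPM, next 6384) and mt-Nd5 (3866 CPM, next 3135). Its GC trend, -0.34, was the lowest among retinas. Wild-type eyecup 5 at 3 months was highest in mt-Atp6 (8377 CPM, next 6220) and mt-Co2 (8736 CPM, next 6191). Wild-type retina 7 at 9 months was highest in mt-Co2 (4775 CPM, next 3562), with a GC trend of -0.31.

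The genotype difference was unlike in eyecup and retina for 3 rows, by the interaction term in edgeR. These were mt-Co3 (log2 difference -0.95, edgeR adjusted p = 0.0294), its copy Gm28437 (0.82, edgeR adjusted p = 0.0457) and Gm28439 (-1.66, edgeR adjusted p = 0.0181). Over the alternatives the adjusted p of mt-Co3 ran from 0.0116 to 0.752 and 6 of 11 kept the call.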

How the results depend on the processing

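Counts of the 11 mitochondrial genes called depended on several settings, some chosen after seeing the data (adding copies, muscle covariate, leaving out libraries of extreme GC trend); unless stated, the cause was not tested. For genotype in eyecups at 3 months (1 called) DESeq2 gave 4 and composition or muscle covariates 8. The GC offset (alone or with copies added), log2(TPM + 1), a fit of only the 2 groups, or leaving out libraries of extreme trend gave 0. Calls over all genes moved as well, from 553 to 982 with DESeq2, 1320 with composition and 938 with muscle covariates. They were 38 with the GC offset and 36 with copies added too. With log2(TPM + 1) 10 genes were called, with only the 2 groups 101 and without extreme libraries 14. Over the 3 ages (4 called) the covariates gave 8 and the GC offset with or without added copies 0. log2(TPM + 1) gave 1, and no filter or leaving out extreme libraries 2. Of all genes, 807 were called in the main fit, and 1275 and 1189 with composition and muscle covariates. The GC offset gave 185 and 178 with copies added, log2(TPM + 1) 34, no filter 647 of 28375 and leaving out extreme libraries 534. For the tissue by genotype interaction (1 called) DESeq2 and nuclear scaling gave 2. The GC offset, added copies, both, or leaving out extreme or outlying libraries gave 0. The calls over all genes were 620 in the main fit, 1075 with DESeq2 and 639 with nuclear scaling. They were 57 with the GC offset, 617 with added copies and 54 with both. Leaving out extreme libraries gave 96, and leaving out outlying ones 232. For age in Efemp1ki/ki retinas (2 called) DESeq2 gave 7, and composition covariates, added copies, log2(TPM + 1), no filter or leaving out outlying libraries 1. The main fit called 3233 of all genes, DESeq2 3449, composition covariates 1604 and added copies 3268. log2(TPM + 1) called 3490, no filter 2666 of 28097, and leaving out outlying libraries 2299. For age in wild-type retinas (1 called) the GC offset gave 2, and with copies added 4. RLE factors, log2(TPM + 1), no filter, only 2 groups, or leaving out extreme or outlying libraries gave 0. The main fit called 3071 of all genes, the GC offset 3956 with or without added copies, and RLE factors 3103. log2(TPM + 1) called 3936, no filter 2798 of 28097 and only 2 groups 2257. Leaving out extreme libraries gave 3612, and leaving out outlying ones 3544. For age in Efemp1ki/ki eyecups (0 called) log2(TPM + 1) gave 3, with 732 of all genes called in place of 643. mt-Rnr2 between tissues reversed on log2(TPM + 1), at -0.21, and the mitochondrial share of the deposited TPM was 18.2% in eyecups and 13.0% in retinas.

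Leaving out 1 library at a time gave 0 to 7 calls at 3 months (7 without Efemp1ki/ki eyecup 8), 2 to 8 over the 3 ages (8 without the same library), 0 to 4 for age in Efemp1ki/ki eyecups (4 without it), 1 to 7 for age in Efemp1ki/ki retinas (7 without wild-type retina 2 at 17 months) and 0 to 2 in wild-type retinas. It was not run for the joint fit of both tissues. With the replicate number as a block the counts were 1 at 3 months and 3 over the 3 ages in eyecups. For age in the retina they were 2 in Efemp1ki/ki and 1 in wild type, and 5 for the tissue by genotype interaction. The calls over all genes were 160, 544, 3384, 3250 and 457 in the same order. Numbers were not taken to pair samples in the main fits. Same-numbered eyecups and retinas correlated between -0.0885 and 0.123 over 41 pairs. This cannot exclude a pairing, because the 2 tissues of an animal need not vary together. Same-numbered wild-type and Efemp1ki/ki eyecups had median correlations of -0.20, 0.26 and -0.004 at 3, 9 and 17 months, with up to 0.68 at 9 months. No eyecup stood apart by correlation, so that setting gave no eyecup value.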
